A study of Trametes cinnabarina with 17 samples.

Results

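The genes described here are a GH7 cellulase gene (protein ID '5845') and an AA9 lytic polysaccharide monooxygenase gene that also carries a CBM1 module (protein ID '5579'). They were taken from the count tables of the white-rot fungus *Pycnoporus cinnabarinus* (strain CIRM-BRFM 137) by their protein IDs, and are 2 of 10442 gene models. The pair was chosen with earlier results of these data known, and the study grouped both genes on libraries analysed here. Transcripts were sequenced from mycelium after 3 days in liquid culture, in 17 libraries that fall into 6 groups by carbon source. Xylan-galactomannan (a mixture of the hemicelluloses xylan and galactomannan), wheat straw (a cereal), pine (a conifer) and aspen (a broadleaf tree) had 3 libraries each. Avicel, a purified crystalline cellulose, had 2 libraries (replicates 1 and 3), and maltose, a simple sugar, had 3.

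By the labels, maltose was supplied at 20 g/l in the maltose group and at 2.5 g/l in the 5 other groups, where 15 g/l of the substrate was added. All media shared the same salts, ammonium source and yeast extract. In each of the 5 comparisons against maltose the substrate and the maltose concentration therefore cannot be told apart, whereas the 10 other comparisons hold the added maltose equal. The methods of the study instead describe each substrate as the sole source of carbon. They also describe the cultures as independent, but do not mention those on xylan-galactomannan, whose independence was assumed. If these were not separate cultures, p-values that involve them measure only the spread between libraries, which may be technical. Bulk RNA does not tell more transcript per cell from more cells that transcribe the gene.

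White-rot fungi attack cellulose with enzymes of both hydrolytic and oxidative type. GH7 enzymes are cellobiohydrolases and endoglucanases, which cut the glucan chains of cellulose by hydrolysis. The cellobiohydrolases of the family move along a chain and release cellobiose. AA9 enzymes are copper-dependent monooxygenases that break chains on the crystalline surface by oxidation and so open new chain ends. CBM1 is a small fungal module that binds crystalline cellulose. The annotation of the study gives CBM1 for the AA9 gene and none for the GH7 gene, and does not say which GH7 activity the protein has.

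Libraries held 10668073 to 16176027 counts. Replicates differed by more than sampling noise, with a chi-square of at least 8.50 per degree of freedom in each pair, and all were counted separately. Normalized counts are read counts divided by the size factor of the library. They are not divided by gene length, and lengths were not used here. Each gene was therefore compared with itself across carbon sources, and both genes were set against each other only as a ratio whose change between groups is free of length.

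The GH7 gene was highest on Avicel, followed by wheat straw, pine, aspen, xylan-galactomannan and maltose. It had 317, 171 and 598 normalized counts in the xylan-galactomannan libraries and 4889, 4267 and 5501 in the wheat straw libraries. In the pine libraries it had 549, 684 and 549 normalized counts, and in the aspen libraries 379, 620 and 381. The Avicel libraries had 152183 and 181396 normalized counts, against 228, 250 and 205 in the maltose libraries. Both Avicel libraries stood far above all others, the 3 wheat straw libraries formed a separate level below them, and the remaining 4 groups lay close together. Pine, aspen and xylan-galactomannan overlapped, and 1 xylan-galactomannan library (replicate 2) was below every maltose library.

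The AA9 gene had the same leading substrates but aspen above pine, in the order Avicel, wheat straw, aspen, pine, xylan-galactomannan and maltose. It had 217, 165 and 229 normalized counts in the xylan-galactomannan libraries and 3319, 3522 and 4832 in the wheat straw libraries. In the pine libraries it had 689, 698 and 632 normalized counts, and in the aspen libraries 649, 1030 and 768. The Avicel libraries had 30615 and 23900 normalized counts, against 148, 114 and 137 in the maltose libraries. Pine and aspen overlapped, and every other pair of groups was separate, including xylan-galactomannan and maltose.

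**Figure D1:**
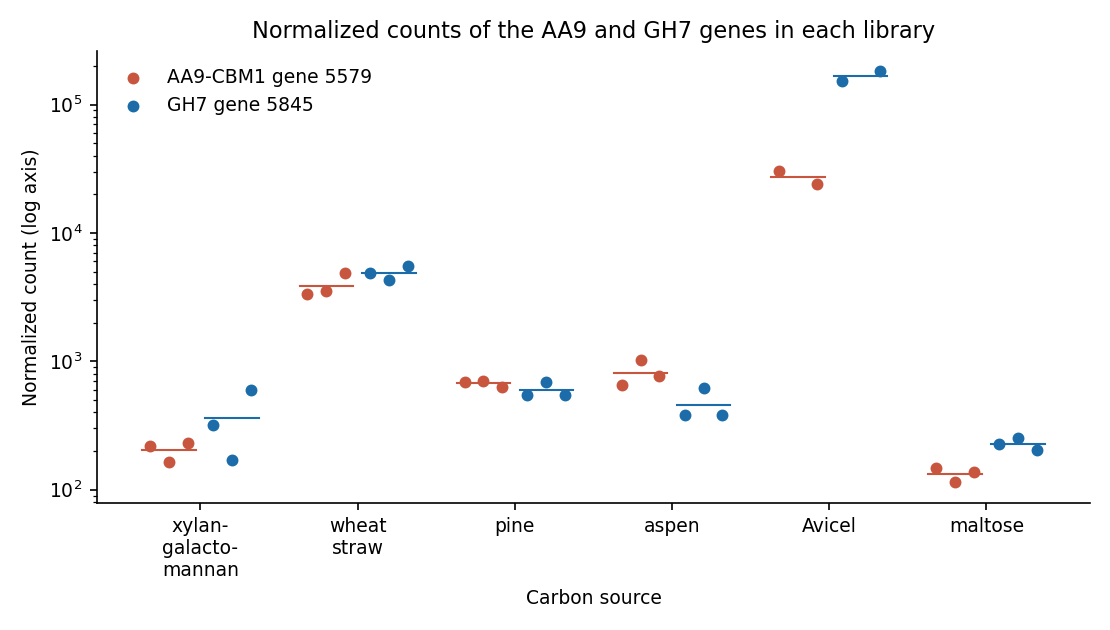
Normalized counts (log axis) of the AA9-CBM1 gene and the GH7 gene on 6 carbon sources. Each point is a library and each bar is the group mean. The Avicel libraries hold 23900 to 30615 normalized counts of the AA9 gene and 152183 to 181396 of the GH7 gene, and no maltose library exceeds 148 of the AA9 gene or 250 of the GH7 gene.

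On Avicel the GH7 gene alone took 0.943% of all counts in replicate 1 (95% exact Clopper-Pearson interval 0.938 to 0.948%) and 1.20% in replicate 3 (1.19 to 1.20%). The AA9 gene took 0.190% (0.187 to 0.192%) and 0.158% (0.156 to 0.160%) of the same libraries. These intervals cover counting error only. The replicate with more GH7 transcript thus had less AA9 transcript. On the scale log2(normalized count + 1), the AA9 gene had a mean level of 11.91 on wheat straw and 14.72 on Avicel, and the GH7 gene 12.25 on wheat straw and 17.34 on Avicel.

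The spread of the GH7 gene between replicates was widest on xylan-galactomannan of the 6 groups, and that of the AA9 gene on aspen. On the log2(normalized count + 1) scale, the pooled SD within groups was 0.25 for the AA9 gene and 0.44 for the GH7 gene (11 degrees of freedom). Without xylan-galactomannan it was 0.25 for the AA9 gene and 0.24 for the GH7 gene. Within the xylan-galactomannan group the highest library held 1.39 times the normalized count of the lowest for the AA9 gene and 3.50 times for the GH7 gene. Within the aspen group this was 1.59 times for the AA9 gene and 1.63 times for the GH7 gene, and within the pine group it was 1.10 times for the AA9 gene and 1.25 times for the GH7 gene.

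The first comparison asked how each gene responded to a cellulose or plant substrate in place of maltose alone. A call required an adjusted p under 0.05 (edgeR quasi-likelihood test, Benjamini-Hochberg over all 9162 genes tested) together with a log2 fold change larger than 1 in either direction. On Avicel both genes rose, where 6.01% of all genes were called higher and 5.83% lower (5.49% and 6.59% with upper-quartile factors). The AA9 gene was 200.5-fold higher on Avicel, or 7.65 ± 0.25 on the log2 scale (SE, edgeR adjusted p = 1.1e-13). The GH7 gene was 716-fold higher, with 9.48 ± 0.43 (SE, edgeR adjusted p = 7.8e-12).

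On wheat straw both genes also rose, where 9.53% of genes were called higher than on maltose. The log2 fold change was 4.84 ± 0.22 for the AA9 gene (SE, edgeR adjusted p = 7.4e-12) and 4.39 ± 0.34 for the GH7 gene (SE, edgeR adjusted p = 7.4e-09). These are 28.7-fold and 21.0-fold higher levels. On pine both genes rose by less. There 13.7% of genes were called higher and 9.34% lower than on maltose with TMM factors, and 11.7% higher and 12.4% lower with upper-quartile factors. The AA9 gene changed by 2.30 ± 0.20 (SE, edgeR adjusted p = 2.7e-08) and the GH7 gene by 1.34 ± 0.31 (SE, edgeR adjusted p = 0.0012). The GH7 call on pine was lost under Bonferroni adjustment.

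Aspen gave a call for the AA9 gene only, where 13.1% of genes were called higher than on maltose. The AA9 gene rose 6.03-fold, or 2.59 ± 0.20 on the log2 scale (SE, edgeR adjusted p = 5.3e-09). The GH7 gene changed 1.98-fold, or 0.99 ± 0.31 on the log2 scale (SE, edgeR adjusted p = 0.011), just under the fold threshold, with a 95% interval of 0.33 to 1.64. Its 3 aspen libraries were all above the 3 maltose libraries. The GH7 call on aspen turned with small changes: the fold change was 1.01 and called with RLE factors or DESeq2, 1.02 without the filter on low counts, 1.11 without aspen replicate 1, 1.10 without aspen replicate 3 and 1.06 without maltose replicate 2.

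On xylan-galactomannan neither gene was called, where 6.97% of genes were called higher than on maltose. The AA9 gene had a value of 0.59 ± 0.20 on the log2 scale (SE, edgeR adjusted p = 0.021) with a 95% interval of 0.18 to 1.01, and its libraries did not overlap with maltose. The GH7 gene had 0.64 ± 0.31 (SE, edgeR adjusted p = 0.10) with an interval of -0.01 to 1.29, and its libraries did overlap. Both intervals include a doubling, that is, a log2 fold change of 1. The GH7 value was 0.10 without xylan-galactomannan replicate 3 and 0.97 without xylan-galactomannan replicate 2, and neither was called.

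The next comparison set every other substrate against pure cellulose at the same added maltose. All 4 substrates had less transcript of both genes than Avicel. On xylan-galactomannan, where 5.1% of genes were called lower, the AA9 gene was 133-fold lower (log2 fold change -7.05 ± 0.24, SE) and the GH7 gene 459.6-fold lower (-8.84 ± 0.42, SE). On wheat straw, where 7.15% of genes were called lower, the AA9 gene was 6.99-fold lower (-2.81 ± 0.20, SE) and the GH7 gene 34.1-fold lower (-5.09 ± 0.36, SE). Wheat straw was thus the substrate nearest to Avicel for both genes.

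On pine 7.66% of genes were called lower than on Avicel, among them both members of the pair. The AA9 gene was 40.8-fold lower on pine (-5.35 ± 0.22, SE) and the GH7 gene 283-fold lower (-8.14 ± 0.41, SE). On aspen, where 7.39% of genes were called lower, the AA9 gene was 33.3-fold lower (-5.06 ± 0.22, SE) and the GH7 gene 361-fold lower (-8.50 ± 0.42, SE). The largest edgeR adjusted p among these 8 values was 6.7e-09, and leaving out either Avicel library changed none of the 8 calls.

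Among the plant substrates, wheat straw separated from both woods and the woods did not separate from each other. Wheat straw had more AA9 transcript than pine (log2 fold change 2.54 ± 0.19, SE) and more GH7 transcript (3.05 ± 0.32, SE), where 2.65% of genes were called higher and 5.18% lower with TMM factors, and 3.51% higher and 4.21% lower with upper-quartile factors. It also had more AA9 transcript than aspen (2.25 ± 0.19, SE) and more GH7 transcript (3.40 ± 0.33, SE), where 3.42% of genes were called higher. The largest edgeR adjusted p of these 4 values was 2.2e-06.

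Between pine and aspen neither gene was called, where 7.8% of genes were called higher and 4.33% lower on pine. The log2 fold change was -0.30 for the AA9 gene (95% interval -0.68 to 0.09, edgeR adjusted p = 0.20) and 0.35 for the GH7 gene (-0.29 to 1.00, edgeR adjusted p = 0.35). The AA9 interval does not reach a doubling in either direction, and the GH7 interval ends just under a doubling on pine.

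Xylan-galactomannan was set against the plant substrates, which contain hemicelluloses together with cellulose. The AA9 gene was lower than on all 3 of them. Its log2 fold change was -4.25 ± 0.21 against wheat straw, where 7.76% of genes were called lower, -1.70 ± 0.19 against pine, where 11.5% were, and -2.00 ± 0.19 against aspen, where 8.1% were (SE, largest edgeR adjusted p 1.2e-06). Against pine 8.98% of genes were called higher with TMM factors. With upper-quartile factors 10.8% were called higher and 10.2% lower against pine. The GH7 gene was called lower only against wheat straw, with -3.75 ± 0.33 on the log2 scale (SE, edgeR adjusted p = 7.4e-08). Against pine it had -0.70 ± 0.31 (SE, edgeR adjusted p = 0.056) and against aspen -0.35 ± 0.31 (SE, edgeR adjusted p = 0.35). Without xylan-galactomannan replicate 3, the library with the most GH7 transcript of its group, the value against pine was -1.27 and was called, and that against aspen was -0.92 and was not. Without xylan-galactomannan replicate 2 the value against aspen was -0.02, and without aspen replicate 2 it was -0.08.

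In all, the AA9 gene was called in 13 of the 15 comparisons and the GH7 gene in 10. Among the 10 comparisons without maltose these counts were 9 and 7. For scale, 7.73% to 23.1% of all genes tested were called over the 15 comparisons. The comparisons share libraries and are not independent of each other.

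**Figure D2:**
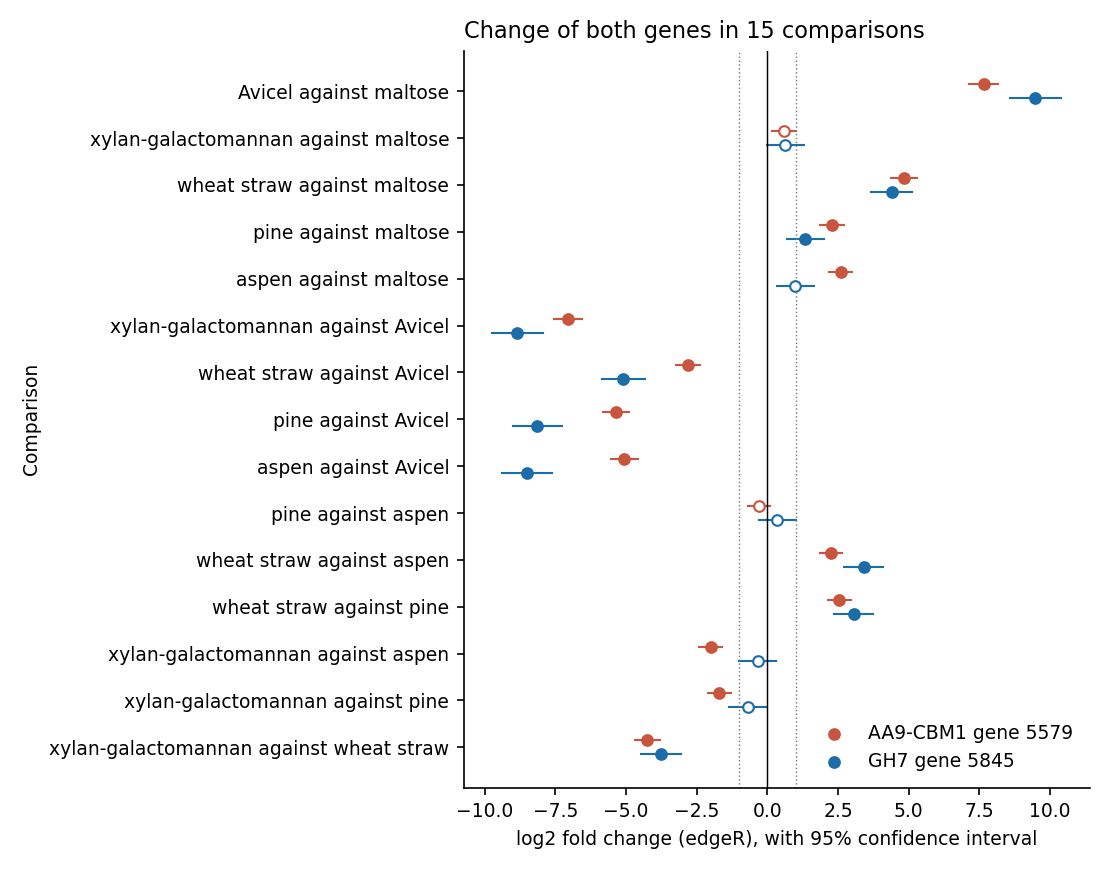
Log2 fold changes (edgeR) of the AA9-CBM1 gene and the GH7 gene in 15 comparisons, the first-named substrate over the second. Bars are 95% confidence intervals, filled points are called and open points are not, and dotted lines mark the fold threshold of 1 and -1. The AA9 gene is open in 2 of 15 comparisons and the GH7 gene in 5.

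Whether the AA9 gene and the GH7 gene kept the same proportion was tested on the count ratio of the AA9 gene to the GH7 gene within a library. The ratio speaks for this pair only, not for all oxidative and hydrolytic genes. Because the ratio is not corrected for gene length, a value above 1 does not mean more AA9 transcripts than GH7 transcripts. Only the change of the ratio between groups is read. The ratio was 0.684, 0.967 and 0.383 in the xylan-galactomannan libraries and 0.679, 0.825 and 0.878 in the wheat straw libraries. It was 1.25, 1.02 and 1.15 in the pine libraries and 1.71, 1.66 and 2.02 in the aspen libraries. The Avicel libraries had ratios of 0.201 and 0.132, against 0.649, 0.456 and 0.669 in the maltose libraries. Avicel was below every other library, aspen was above every other library, and xylan-galactomannan spread across the maltose and wheat straw ranges.

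**Figure D3:**
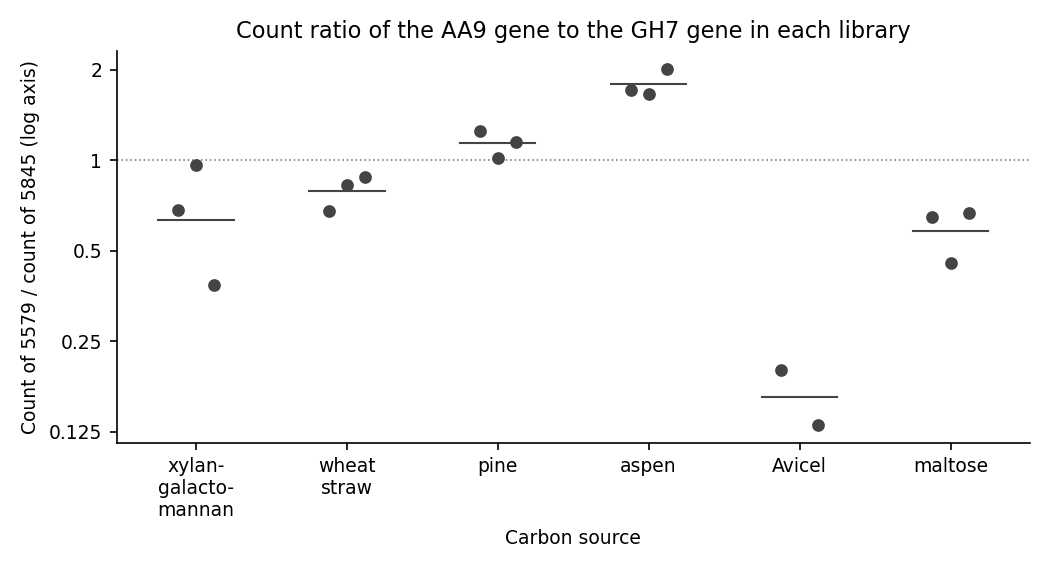
Count of the AA9 gene divided by the count of the GH7 gene (log axis) on 6 carbon sources. Each point is a library, bars are means on the log scale, and the dotted line is a ratio of 1. Aspen lies at 1.66 to 2.02, Avicel at 0.132 to 0.201 and maltose at 0.456 to 0.669.

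The ratio of every gene to the GH7 gene was fitted with limma over 9161 genes, with the same thresholds for a call, here on the log2 ratio. All these ratios share the GH7 counts, so the moderated variance is treated as better known than it is and the p-values can be too small. A fit without moderation, with 11 residual degrees of freedom and chosen after seeing the data, is therefore given beside them. It gave the same call for the AA9 gene in all 15 comparisons. Shares of all genes called on the ratio are those with moderation, unless marked otherwise. Exact permutation tests over the libraries of each comparison could not go below p = 0.1, the value reached in the 13 comparisons whose ranges do not overlap.

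On Avicel the AA9 to GH7 ratio was lower than on maltose by a log2 difference of -1.84 (limma adjusted p = 5.8e-05, and 0.00017 without moderation, where the 95% interval was -2.57 to -1.11). The AA9 gene therefore rose less on Avicel than the GH7 gene did. This was not particular to the AA9 gene, since 99.8% of all genes were called lower relative to the GH7 gene in this comparison.

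On aspen the ratio was higher than on maltose by 1.62 on the log2 scale (limma adjusted p = 0.00039, and 0.0024 without moderation, where the 95% interval was 0.96 to 2.27). Here 4.65% of all genes were called higher relative to the GH7 gene (4.15% without moderation) and 48.2% lower. Pine had a difference of 0.96 from maltose, just under the threshold of 1 (limma adjusted p = 0.026, and 0.014 without moderation), where 3.01% of genes were called higher and 67.9% lower relative to the GH7 gene. Without pine replicate 2, maltose replicate 1 or maltose replicate 3 this difference was 1.04, 1.04 and 1.06 and was called.

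Wheat straw and xylan-galactomannan were not called against maltose for the ratio. The log2 difference was 0.44 on wheat straw (95% interval without moderation -0.22 to 1.09), where 0.48% of genes were called higher relative to the GH7 gene and 98.7% lower. On xylan-galactomannan it was 0.12 (-0.53 to 0.77), where 2.4% were called higher and 8.6% lower (0.961% and 1.6% without moderation). The value on xylan-galactomannan changed sign without xylan-galactomannan replicate 2 (-0.19) or maltose replicate 2 (-0.06).

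Against Avicel the ratio was higher on all 4 other substrates, by a log2 difference of 1.96 on xylan-galactomannan, 2.28 on wheat straw, 2.80 on pine and 3.46 on aspen. The largest limma adjusted p was 1.9e-05, and 0.00010 without moderation. As nearly every gene differs from the GH7 gene in this way, the share of all genes called higher was 99.8% on xylan-galactomannan, 99.8% on wheat straw, 100% on pine and 100% on aspen.

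Between the other substrates 2 differences in the ratio were called, both against aspen. Wheat straw had a lower ratio than aspen by -1.18 (limma adjusted p = 0.0040, and 0.0022 without moderation), where 99.7% of genes were called lower, so this was not particular to the AA9 gene. Xylan-galactomannan had a lower ratio than aspen by -1.50 (limma adjusted p = 0.0032, and 0.014 without moderation), where 3.49% were called lower, and 2.41% without moderation. In a fit with only the libraries of xylan-galactomannan and aspen, this call was lost (limma adjusted p = 0.29).

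The ratio on pine was not called different from that on aspen, with a log2 difference of -0.65 (95% interval without moderation -1.31 to -0.0015). Here 8.77% of genes were called lower and 2.62% higher (2.01% and 0.48% without moderation). Wheat straw differed from pine by -0.53 (-1.18 to 0.13), where 99.4% were called lower and 0.0327% higher. Xylan-galactomannan differed from pine by -0.84 (-1.50 to -0.19), where 2.39% were called lower and 43.9% higher. Without xylan-galactomannan replicate 2 the difference from pine was -1.15 and was called. Xylan-galactomannan differed from wheat straw by -0.32 (-0.97 to 0.33), where 0.284% were called lower and 99.3% higher, and without xylan-galactomannan replicate 3 this was 0.04.

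Other enzymes of cellulose and glucan breakdown were then placed beside the pair. The list holds 2 CBM1-GH5_5 endoglucanases ('1929' and '8616'), a GH131-CBM1 glucanase ('1365'), and a GH1 and a GH3 gene ('4378' and '4566'), families that include the β-glucosidases that split cellobiose into glucose. The study grouped the first 4 with the pair on these libraries. It selected GH3 among the families higher on plant substrates than on maltose and Avicel. The direction of all 5 is therefore not independent evidence. On Avicel 4 of the 5 were called higher than on maltose, with a median log2 fold change of 9.13, against -0.01 over all genes tested. The median was 5.54 on wheat straw, 3.68 on pine and 3.69 on aspen, with 5 of 5 called on each, and 1.13 on xylan-galactomannan with 3 of 5 called (2 without xylan-galactomannan replicate 3). The median over all genes lay between -0.05 and -0.0046 in these comparisons. Genes called higher made up 6.01% of all genes on Avicel, 9.53% on wheat straw and 13.7% on pine. They made up 13.1% on aspen and 6.97% on xylan-galactomannan.

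The GH5_5 endoglucanase '8616', which cuts within cellulose chains, had the same order of group means as the GH7 gene. The GH1 gene '4378' and the predicted mutarotase '3419' had this order too, while the GH5_5 gene '1929' had aspen above pine. Pine against aspen was called neither for '8616' (log2 fold change 0.15, edgeR adjusted p = 0.57) nor for the GH7 gene. Gene '8616' had 490 ± 149 normalized counts on xylan-galactomannan, 4903 ± 561 on wheat straw, 1237 ± 240 on pine wood and 1099 ± 178 on aspen wood (SD, n = 3 each). On Avicel it had 112921 ± 2395 (SD, n = 2), against 191 ± 31.9 on maltose (SD, n = 3). Its rise on pine and aspen, 2.65 and 2.50 on the log2 scale, was called on both woods.

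The GH1 gene '4378', like '8616' (log2 fold change 1.335) and '1365' (1.13), was called on xylan-galactomannan against maltose, where neither member of the pair was. It had 1149 ± 114 normalized counts there, against 165 ± 4.84 on maltose (SD, n = 3 each), which is 2.77 ± 0.16 on the log2 scale (SE, edgeR adjusted p = 5.8e-10). On Avicel it had 67753 ± 5367 (SD, n = 2), which is 8.65 ± 0.20 against maltose on the log2 scale (SE, edgeR adjusted p = 2.2e-15).

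The GH3 gene '4566', which the study grouped apart from the pair on these libraries, had another pattern from the pair. It had 7338 ± 890 normalized counts on wheat straw, 11074 ± 739 on pine wood and 2560 ± 465 on aspen wood (SD, n = 3 each). On Avicel it had 737 ± 285 (SD, n = 2), against 623 ± 107 on maltose (SD, n = 3), a log2 difference of 0.21 ± 0.23 that was not called (SE, edgeR adjusted p = 0.52). Against Avicel it was called higher on pine (3.90), wheat straw (3.32) and aspen (1.80), where both members of the pair were lower.

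**Figure D4:**
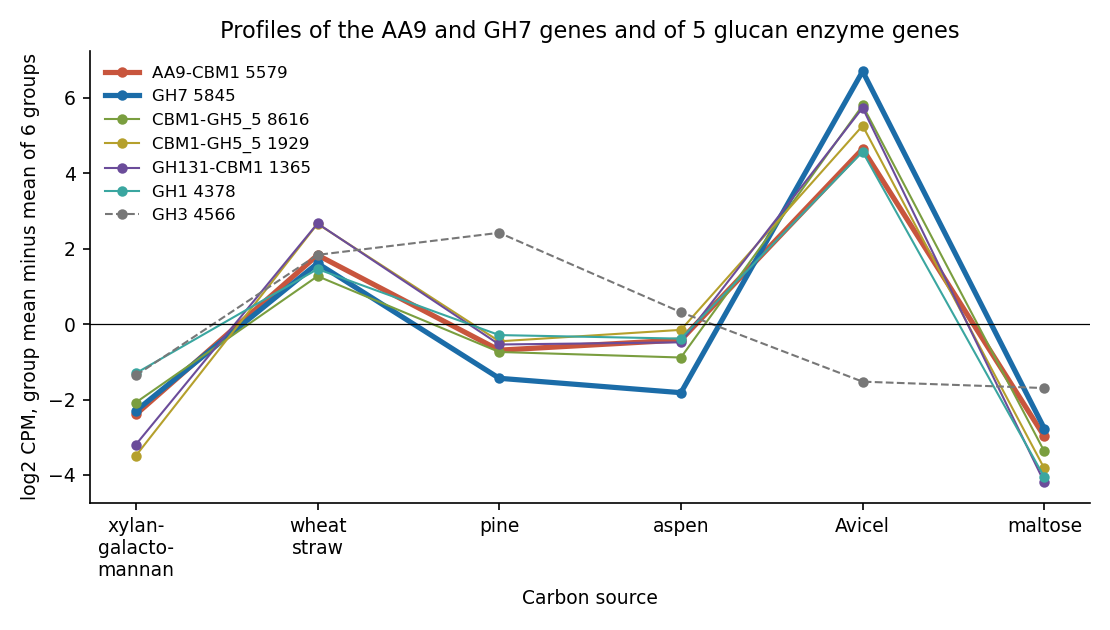
Group means of log2 CPM (counts scaled to library size) for 7 genes on 6 carbon sources, each gene centred on its own mean. The AA9-CBM1 gene reaches 4.65 and the GH7 gene reaches 6.71 above their means on Avicel, where the GH3 gene (dashed) is 1.52 below its own.

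Other oxidoreductases were read beside the AA9 gene as a list of 3. It holds a pair of AA1_1 laccases ('8672' and '3446'), which oxidise phenols, and an AA3_2 gene ('3421'), from a family of flavin-dependent oxidases and dehydrogenases. The study selected both laccases on the plant substrates, and an AA3_2 gene on pine, as higher than on maltose and Avicel. It used libraries analysed here, so the calls of this list are not independent evidence. On Avicel 1 of 3 was called higher than on maltose (median log2 fold change 0.51), where 6.01% of all genes were. On wheat straw, pine and aspen 3 of 3 were (medians 4.16, 2.35 and 2.33), where 9.53%, 13.7% and 13.1% of all genes were. On aspen 2 of 3 were called without aspen replicate 1 or without maltose replicate 2. On xylan-galactomannan 1 of 3 was called, with a median of 0.51, where 6.97% of all genes were. The median over all genes lay between -0.05 and -0.0046 in these 5 comparisons. The called gene on Avicel and on xylan-galactomannan was the laccase '8672', at 2.09 and 3.08.

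Of 8 enzymes of hemicellulose and pectin breakdown, 2 were called higher on Avicel than on maltose (median 0.32) and 5 on xylan-galactomannan (median 1.12, and 4 called without xylan-galactomannan replicate 1 or 3 or without maltose replicate 3). On wheat straw, pine and aspen 8 of 8 were called higher, with medians of 2.99, 2.94 and 2.87. The study selected genes of the families in this list as higher on plant substrates than on maltose and Avicel. It used libraries analysed here, so these counts are not independent evidence. The shares of all genes called higher were 6.01% on Avicel, 6.97% on xylan-galactomannan, 9.53% on wheat straw, 13.7% on pine and 13.1% on aspen, with the all-gene medians given above. The 3 other genes that the study grouped with the pair, a predicted mutarotase ('3419'), a carboxypeptidase ('6605') and a gene with no predicted function, were all called higher on Avicel, wheat straw, pine and aspen, and 1 of 3 on xylan-galactomannan, beside the same shares of all genes.

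Genes with the most similar profile were ranked by the root mean square difference of the 6 centred group means of log2 CPM, over 9161 genes. This describes these libraries and carries no test. For the GH7 gene the nearest were '7225' (0.61 log2 units), which has no annotation in the sources used here, and the GH5_5 endoglucanase '8616' (0.67). For the AA9 gene the nearest were the predicted mutarotase '3419' (0.39) and '5113' (0.42), which is likewise without annotation. The pair differed by 1.07, so that the AA9 gene was at rank 6 for the GH7 gene, and the GH7 gene at rank 17 for the AA9 gene. The remaining gene of the 3 nearest to each, at 0.88 for the GH7 gene and 0.43 for the AA9 gene, also had no annotation. On the scale log2(normalized count + 1) the 3 nearest of each gene were the same. They differed under the other alternatives. By Pearson correlation over libraries the nearest to the AA9 gene was the GH131-CBM1 gene '1365', and neither '3419' nor '5113' was among its 3 nearest. Without the Avicel group both were again missing, and '8616' was among them. For the GH7 gene '7225' was among the 3 nearest both by Pearson correlation and without Avicel, and '8616' in neither case.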

How the data were processed

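The authors sequenced poly-A RNA as Illumina read pairs, filtered the reads, aligned them with TopHat 2 and counted them per gene model with HTSeq. The deposited table of raw counts was used for all tests. A further deposited table gives a normalized signal, which is these counts over size factors of DESeq (version 1.5 in the submitters' processing notes, DESeq2 in the study's methods). The ratio of the tables was constant within each library to 9.9e-15 and lay within 0.0335% of median-of-ratios factors. How HTSeq treated strand and multiply mapping reads is not given in the sources used here. Counts shared with near-identical or overlapping genes are therefore uncertain.

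Counts were filtered with filterByExpr (9162 genes left), scaled with TMM factors and fitted with edgeR 4.0.16 (R 4.3.3) by 1 quasi-likelihood model over the 17 libraries with group as the only term. SE is the log2 fold change over the square root of F. Ratios were fitted with limma 3.58.1 on log2((count + 0.5)/(count of 5845 + 0.5)). Both procedures were tested on simulated data in which the GH7 gene was unchanged. The ratio fit was therefore not checked for a GH7 gene that changes between groups. CPM for profiles had a prior count of 2. Normalization, filter, thresholds, DESeq2 1.42.0, the samples fitted, a replicate block and single libraries were varied. Replicate numbers were not taken as a pairing of the libraries.

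The pair, 4 lists from the study's annotation and the 3 nearest genes of each were named, except that IDs without annotation were limited to one per member. The members and lists were chosen with earlier results of these data known, and the study grouped 5845, 5579 and the genes of their node on libraries analysed here. The RefSeq gene table matched 0 IDs, so names, positions, lengths and sequences are not given. All columns were mapped to libraries.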

Additional observations from a re-analysis of the deposited data

How the results depend on the processing

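Of the recomputed values, 204 of 205 for the AA9 gene, 196 of 205 for the GH7 gene and 198 of 220 for their ratio had the same sign and the same call. Under Bonferroni adjustment the GH7 gene was no longer called on pine against maltose (1.34). Without a threshold on fold change, calls were added for the AA9 gene on xylan-galactomannan against maltose (0.59), the GH7 gene on aspen against maltose (0.99) and the ratio on pine against maltose (0.96). The GH7 gene on aspen against maltose was also called with RLE factors (1.01), DESeq2 (1.01) and no filter on low counts (1.02). For the ratio, an exact permutation test, which cannot go below p = 0.1 here, ended all 8 calls: -1.84 for Avicel and 1.62 for aspen against maltose, 1.96, 2.28, 2.80 and 3.46 for xylan-galactomannan, wheat straw, pine and aspen against Avicel, and -1.18 and -1.50 for wheat straw and xylan-galactomannan against aspen. Bonferroni adjustment ended 5 of these calls (-1.84, 1.62, 1.96, -1.18 and -1.50), and a fit of only the groups compared ended that of xylan-galactomannan against aspen (-1.50). Pseudocounts of 1 and 5 changed no call of the ratio.

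Leaving out single libraries changed calls for 2 comparisons of the GH7 gene, which ranged from 0.72 to 1.11 for aspen against maltose and from -1.27 to -0.37 for xylan-galactomannan against pine. For the ratio, the range was 0.79 to 1.06 for pine against maltose and -1.15 to -0.48 for xylan-galactomannan against pine. It crossed 0 for xylan-galactomannan against maltose (-0.19 without xylan-galactomannan replicate 2, -0.06 without maltose replicate 2, highest 0.48) and against wheat straw (-0.62 to 0.044, the last without xylan-galactomannan replicate 3). The cause of these changes was not tested. A replicate block changed no call of either gene or the ratio. The GH7 gene on Avicel against maltose was 9.46 with the replicate block. Correlations of same-numbered libraries ranged from -0.24 to 0.24 over 40 pairs, 13 of them over 0.1, and 8 of 17 libraries correlated best with their own number, so the numbers were not taken as a pairing.

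Over the 15 comparisons 7.73% to 23.1% of genes were called, 3.74% to 17.1% under Bonferroni adjustment (12 comparisons moved by over 1.5 times) and 29.9% to 63.3% without a threshold on fold change (15 moved). Upper-quartile factors moved the median of all genes on pine against maltose to -0.15, against -0.03 with TMM factors. The ranks of the genes to each other as most similar, 6 and 17, were 13 and 28 by Pearson correlation over libraries (r = 0.95) and 8 and 16 without Avicel. The ratio rests on 2 Avicel libraries and a wide spread on xylan-galactomannan, and groups of 2 or 3 cannot pass 0.05 in an exact test.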
